A study of Mus musculus with 2 samples.

Results

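The citrate cycle and fatty acid oxidation enzymes are described here across a DCA and an NC library of cultured mouse cells. The cells are labelled as macrophages raised from bone marrow (BMDMs). The members are 39 genes fixed by symbol, and all 39 were found among the 15576 genes of the table, each in 1 row. They comprise 21 genes of pyruvate entry, the citrate cycle and its cytosolic relatives and 18 genes of fatty acid oxidation. DCA cells received deoxycholic acid at 100 µM for 24 h; it is a bile acid that gut bacteria make. NC cells were collected without it. The labels do not settle whether collection came at 24 h or a day later, and they give no vehicle, genotype, strain, age or number of mice. RNA was sequenced in 1 library per group, and expression was deposited as FPKM (reads scaled by gene length in kilobases and by 1e6 reads). Read counts given here were rebuilt from the FPKM, as were the totals by which it was scaled, 56570555 reads in DCA and 59205366 in NC. With 1 library per group the spread between cultures is unknown, and no test was run.

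Pyruvate enters the mitochondrial matrix and is turned into acetyl-CoA by the pyruvate dehydrogenase complex. Citrate synthase joins acetyl-CoA to oxaloacetate, and the cycle oxidises the product to regenerate oxaloacetate while loading NADH and FADH2 for the respiratory chain. Fatty acids reach the matrix as carnitine esters and are shortened by repeated rounds of dehydrogenation, hydration, a further dehydrogenation and thiolysis, which feed the same acetyl-CoA pool and pass electrons to the chain through the electron transfer flavoprotein. In macrophages, inflammatory activation is known to interrupt the cycle and divert citrate and succinate, whereas alternative activation is known to keep the cycle and fatty acid oxidation running.

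These enzymes lay close together in the DCA and NC libraries. Summed over all 39 members, the rebuilt reads came to 198467 in DCA against 207863 in NC, giving a ratio of DCA over NC of 0.9993 after division by the read totals. Its 95% interval was 0.993 to 1.005. Intervals of ratios given here are exact Clopper-Pearson intervals of the read counts, and those of ratios of ratios are exact conditional intervals. All of them cover counting error only and compare the DCA and NC libraries, not the conditions. The sums of the pyruvate and citrate members and of the fatty acid oxidation members had ratios of 0.9993 (0.992 to 1.006) and 0.9993 (0.987 to 1.011). Of the 39 members, 38 had a mean FPKM of at least 1 over both libraries and were counted against size limits. The remaining gene, Pcx, is given by its values only. In bulk samples fewer cells of a type and less RNA per cell cannot be told apart.

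Few members passed a size limit. On the log2(FPKM + 1) scale, where low genes appear closer to equality than they are, Cpt2 and Acadvl were at least 1.1-fold higher in DCA, where 8.99% of all 9656 genes with that mean FPKM were as far apart, and Eci1 was at least 1.1-fold lower, where 4.79% of all genes were. No member was 1.5-fold higher (background 0.342%) or 1.5-fold lower (background 0.155%). By any amount, 18 members were higher (47.4%, against 53.5% of all genes) and 20 were lower (52.6%, against 46.5% of all genes). With each library rescaled to the same larger FPKM sum, that split was 13 higher and 26 lower. This rescaling raises every FPKM, which brings Pcx past the filter and lessens the weight of the added 1. The 1.1-fold split was then 2 higher and 3 lower in place of 2 and 1. Beside it stood 14.3% and 12.2% of the 11706 genes then past the filter. These 1.1-fold counts and shares therefore do not show the effect of equalising the libraries alone. The counting interval lay above 1 for 9 members (23.7%, against 25.7% of all genes) and below 1 for 7 (18.4%, against 20.0% of all genes), so the members' shares were near the background. The median ratio of the members was 0.995 (interquartile range 0.968 to 1.03), beside 1.006 (0.963 to 1.06) for all genes. In size, 33 of 38 members (86.8%) lay within 10% of equality, as did 79.9% of all genes, and the SD of the log2 differences was 0.08 among the members and 0.15 among all genes. These members had 543 to 18561 reads in DCA, while all genes ran from 0 to 745872. The background of these 2 measures was not matched for reads and includes shallower genes.

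**Figure D1:**
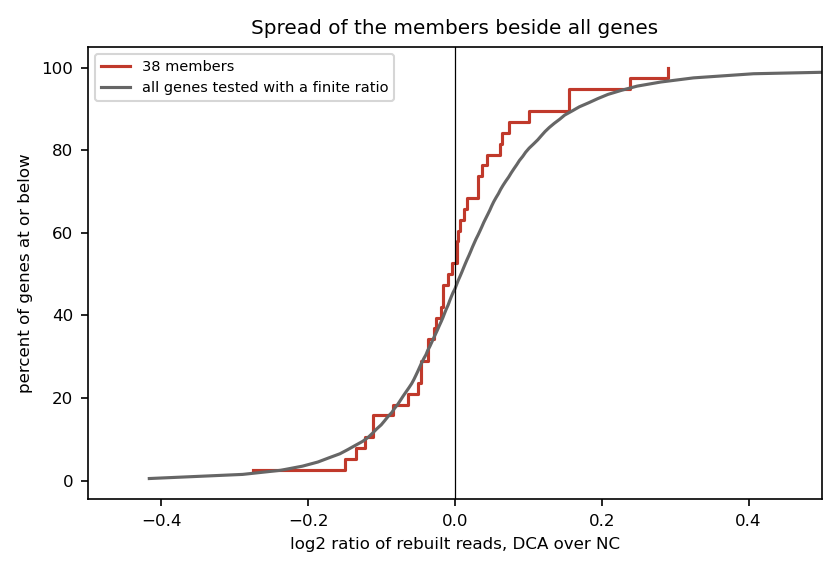
Cumulative percent of genes at or below each log2 ratio of reads, DCA over NC, for the 38 members with a mean FPKM of at least 1 and for all genes with that mean. Below 0 the curves run close together, at equality 52.6% of the members and 46.5% of all genes are lower in DCA, and the members run from a ratio of 0.826 (Eci1) to 1.22 (Acadvl).

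The values of 13 members carry a further uncertainty. Exons of 9 members share positions with another annotated gene, and 4 others (Pdhb, Suclg2, Hadhb and Etfa) have a processed pseudogene elsewhere with at least 95% identity over at least 100 bases of their transcript. The sources used here do not give the strand setting of the counting, so reads of overlapping genes cannot be told apart. Among the other 26 members, 25 passed the filter, 10 of them higher and 15 lower in DCA, at a median ratio of 0.987. Their counting intervals lay above 1 for 5 and below 1 for 5. Of all genes tested, 53.5% were higher and 46.5% lower, and 25.7% and 20.0% had an interval above and below 1. Those shares include genes with overlaps or copies. Copies were sought for the members only, so no matching share was computed and these counts are descriptions.

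**Figure D2:**
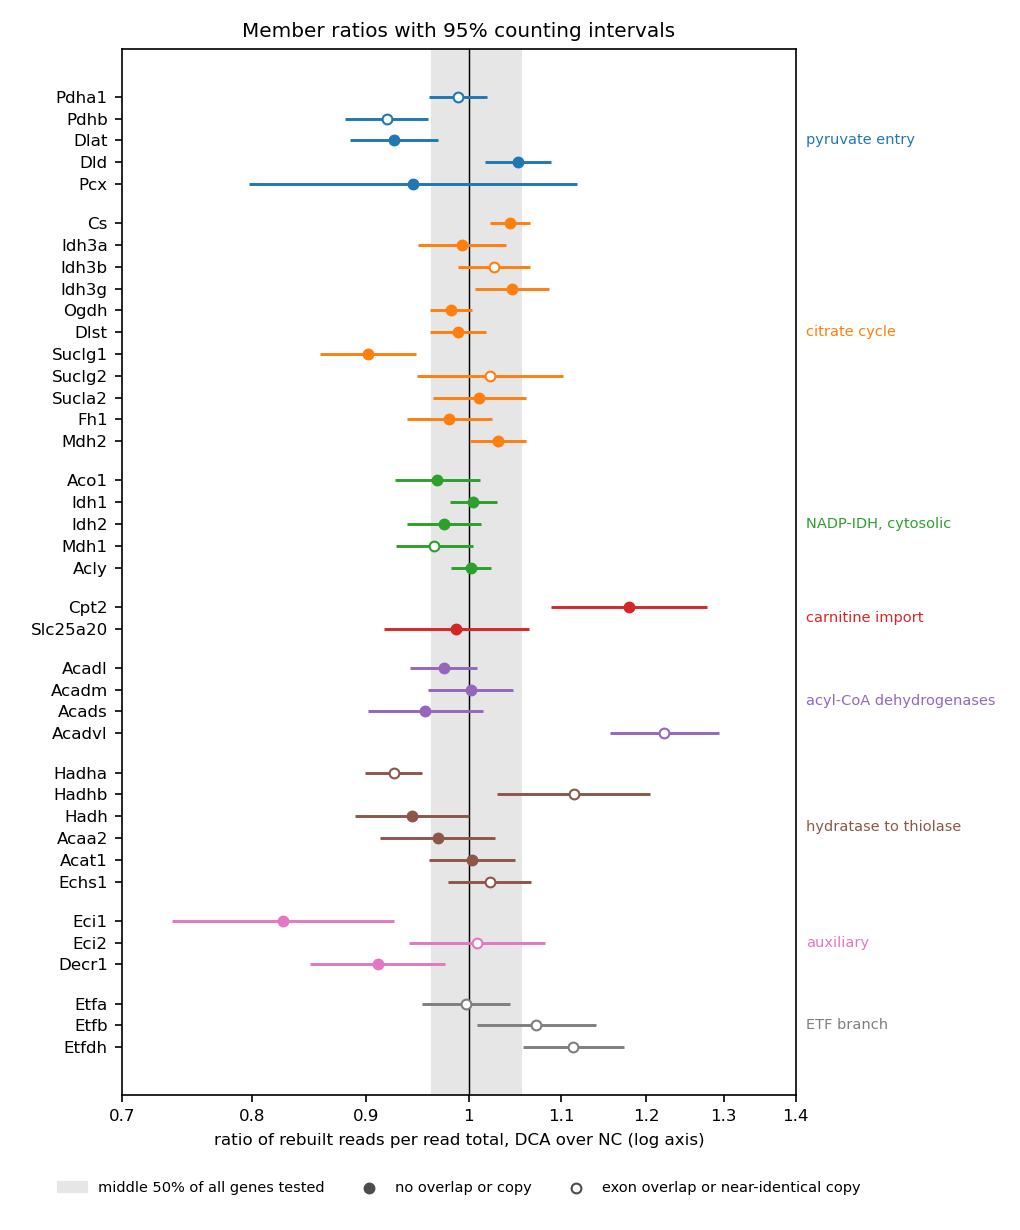
Ratio of reads per read total, DCA over NC, on a log axis for each of the 39 members, with its 95% counting interval as a bar, in groups by role. Open points are the 13 members with an exon overlap or a near-identical copy, and the grey band is the middle 50% of all genes tested, 0.963 to 1.06; Acadvl (1.22) and Cpt2 (1.18) lie furthest to the right and Eci1 (0.826) furthest to the left.

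The catalytic subunits that only the pyruvate dehydrogenase complex uses were at or below equality in DCA, and the subunit it shares with other complexes was above it. Pdha1, the alpha subunit of the decarboxylating component, had 31.7 FPKM in DCA against 32.0 in NC, giving a ratio of 0.989 (0.959 to 1.02). Pdhb, its beta subunit (ENSMUSG00000021748, GRCm38 chromosome 14, 8165996 to 8173025, minus strand), stood at 8.67 FPKM in DCA against 9.43 in NC. This came from 3927 reads in DCA against 4473 in NC, giving a ratio of 0.919 (0.880 to 0.959). A processed pseudogene, Gm6123, matches 71.2% of the Pdhb transcript at up to 97.0% identity and has no value here, so reads shared with it are uncertain. Dlat, the acetyltransferase core of the complex, had 9.09 FPKM in DCA against 9.82 in NC, giving a ratio of 0.926 (0.885 to 0.968). Pdhx, the protein that tethers the shared subunit and is not a member, lay further the same way with 3.89 FPKM in DCA against 4.73 in NC, giving a ratio of 0.823 (0.762 to 0.890). Dld, the dihydrolipoamide dehydrogenase that this complex shares with the 2-oxoglutarate dehydrogenase complex, had 24.2 FPKM in DCA against 23.0 in NC, giving a ratio of 1.052 (1.02 to 1.09). The ratio of Dld was 1.14 times that of Dlat, with an exact conditional 95% interval of 1.07 to 1.203 for this ratio of ratios. Pcx, pyruvate carboxylase, which refills oxaloacetate, was the lowest member in level, with 267 reads in DCA and 296 in NC (0.339 and 0.359 FPKM). At this depth no difference could be seen, with a ratio of 0.944 (0.797 to 1.12).

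Across the 11 mitochondrial enzymes of the cycle itself, 6 were higher and 5 lower in DCA, at a median ratio of 1.01. None passed the 1.1-fold limit on the log2(FPKM + 1) scale, while by the ratio of reads Suclg1 did. Cs, citrate synthase, had 18561 reads in DCA against 18617 in NC, the largest read counts among the members, with 55.3 FPKM in DCA and 53.0 in NC and a ratio of 1.04 (1.02 to 1.06). The 3 subunits of the NAD-dependent isocitrate dehydrogenase had overlapping intervals. Idh3a, the catalytic subunit, had 6.02 FPKM in DCA against 6.06 in NC, giving a ratio of 0.993 (0.949 to 1.04). Idh3b, a further subunit, had 16.9 FPKM in DCA and 16.5 in NC and a ratio of 1.03 (0.989 to 1.06). Idh3g, the gamma subunit, had 11.4 FPKM in DCA and 10.9 in NC and a ratio of 1.045 (1.01 to 1.09). Ogdh, the decarboxylating component of the 2-oxoglutarate dehydrogenase complex, had 15.7 FPKM in DCA against 15.97 in NC, giving a ratio of 0.982 (0.961 to 1.003). Dlst, its succinyltransferase, had 9.62 FPKM in DCA against 9.73 in NC, giving a ratio of 0.989 (0.961 to 1.02). Fh1, fumarate hydratase, had 13.5 FPKM in DCA and 13.8 in NC, and Mdh2, the mitochondrial malate dehydrogenase, 24.7 in DCA and 24.0 in NC. Their ratios were 0.980 (0.939 to 1.02) and 1.03 (1.001 to 1.06).

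Succinyl-CoA synthetase held the lowest ratio of the cycle. Suclg1 encodes the alpha subunit common to both forms of the enzyme (ENSMUSG00000052738, chromosome 6, 73248382 to 73276911, plus strand). It had 8.02 FPKM in DCA against 8.89 in NC, from 2995 reads in DCA against 3478 in NC, giving a ratio of 0.901 (0.858 to 0.947). The beta subunits that set the nucleotide were near equality. Sucla2, of the ADP-linked form, had 8.51 FPKM in DCA against 8.42 in NC, giving a ratio of 1.01 (0.963 to 1.06). Suclg2, of the GDP-linked form, had 3.08 FPKM in DCA against 3.01 in NC, giving a ratio of 1.02 (0.948 to 1.102), and shares 38.7% of its transcript with the pseudogene Gm15163. The ratio of Suclg1 was 0.891 times that of Sucla2 (0.832 to 0.955) and 0.882 times that of Suclg2 (0.806 to 0.965). Per kilobase of exon, Sucla2 exceeded Suclg2 by 2.79 times in DCA and 2.82 times in NC.

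The NADP-dependent isocitrate dehydrogenases and the cytosolic enzymes lay within 4% of equality. Idh1, the cytosolic NADP enzyme, had 29.3 FPKM in DCA against 29.2 in NC, giving a ratio of 1.005 (0.981 to 1.03). Idh2, its mitochondrial counterpart, had 13.0 FPKM in DCA against 13.4 in NC, giving a ratio of 0.975 (0.939 to 1.01). Acly, which splits exported citrate into acetyl-CoA for lipid synthesis and histone acetylation, had 18.2 FPKM in both libraries, a ratio of 1.002 (0.981 to 1.02). Aco1, the cytosolic aconitase that also acts as an iron regulatory protein, had 12.4 FPKM in DCA against 12.8 in NC, giving a ratio of 0.968 (0.927 to 1.01). Mdh1, the cytosolic malate dehydrogenase of the malate-aspartate shuttle, had 21.7 FPKM in DCA against 22.4 in NC, giving a ratio of 0.965 (0.928 to 1.004).

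The 18 fatty acid oxidation members were spread more widely than the 20 pyruvate and citrate members past the same filter, with SDs of the log2 difference of 0.11 and 0.06. Of the 18, 9 were higher and 9 lower in DCA. They also had fewer reads, 51995 in DCA against 146472 for all 21 pyruvate and citrate members, so their counting error is larger. The part of depth, exon overlaps and near-identical copies in the wider spread was not tested. At the entry step, Cpt2, the inner-membrane carnitine palmitoyltransferase (ENSMUSG00000028607, chromosome 4, 107903981 to 107923610, minus strand), stood at the highest ratio among members free of overlaps and copies. It had 3.88 FPKM in DCA against 3.29 in NC, from 1286 reads in DCA against 1141 in NC, giving a ratio of 1.18 (1.09 to 1.28). Slc25a20, the carrier that brings acylcarnitines to it, had 4.52 FPKM in DCA against 4.57 in NC, giving a ratio of 0.987 (0.916 to 1.06). The ratio of Cpt2 was 1.19 times that of Slc25a20 (1.07 to 1.33).

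Of the acyl-CoA dehydrogenases, which open each round on chains of different length, only the very long-chain enzyme was past 1.1-fold. Acadvl (ENSMUSG00000018574, chromosome 11, 70010183 to 70015411, minus strand) stood at 6.08 FPKM in DCA against 4.97 in NC, from 2683 reads in DCA against 2296 in NC, giving a ratio of 1.22 (1.16 to 1.29). Of its exonic bases, 42.9% are shared in position with Dvl2, which lay the other way with 2495 reads in DCA against 2830 in NC and a ratio of 0.923 (0.874 to 0.974). For the reads of Acadvl and Dvl2 together, the ratio was 1.06 (1.02 to 1.099). Acadl, the long-chain enzyme, had 43.7 FPKM in DCA against 44.8 in NC, giving a ratio of 0.975 (0.942 to 1.01). Acadm and Acads, the medium-chain and short-chain enzymes, had 8.76 and 7.38 FPKM in DCA and 8.75 and 7.72 FPKM in NC, with ratios of 1.002 (0.959 to 1.047) and 0.956 (0.901 to 1.01). The long-chain enzyme led the family in both libraries: per kilobase of exon, Acadl exceeded Acadm by 3.15 times in DCA and 3.23 times in NC, and Acads by 3.39 times in DCA and 3.33 times in NC.

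The subunits of the mitochondrial trifunctional protein, which carries out the last 3 steps on long chains, stood on opposite sides of equality. Hadha, the alpha subunit with the hydratase and hydroxyacyl dehydrogenase (ENSMUSG00000025745, chromosome 5, 30118304 to 30155162, minus strand), stood at 10.2 FPKM in DCA against 11.1 in NC. This came from 8266 reads in DCA against 9348 in NC, giving a ratio of 0.925 (0.898 to 0.953). Hadhb, the thiolase beta subunit (ENSMUSG00000059447, chromosome 5, 30155248 to 30184593, plus strand), stood at 1.73 FPKM in DCA against 1.55 in NC, from 1304 reads in DCA against 1225 in NC, giving a ratio of 1.11 (1.03 to 1.21). The ratio of Hadhb was 1.204 times that of Hadha (1.11 to 1.31). Per kilobase of exon Hadha exceeded Hadhb by 4.79 times in DCA and 5.76 times in NC. The pseudogenes Gm13910 and Gm9108, which have no value here, match 69.7% and 69.6% of the Hadhb transcript at up to 99.8% and 97.6% identity, so the reads of Hadhb are uncertain, and the part of such shared sequence in its level and ratio was not tested. The genes are transcribed away from each other, and 85 bases lie between their annotated starts (GRCm38, chr5:30155163-30155247). That stretch, from the RefSeq promoter table of GRCm38.p6, is shown on the plus strand, which is the strand of Hadhb, because it separates the annotated starts; capitals mark GC boxes (GGGCGG on either strand).
Hadha-Hadhb interval: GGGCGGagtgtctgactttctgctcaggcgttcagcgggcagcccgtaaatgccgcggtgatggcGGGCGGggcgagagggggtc

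The other enzymes of the later steps had ratios within 6% of equality. Hadh, the short-chain hydroxyacyl dehydrogenase, had 6.93 FPKM in DCA against 7.35 in NC, giving a ratio of 0.943 (0.890 to 0.99995). Echs1, the short-chain enoyl-CoA hydratase, had 4.78 FPKM in DCA against 4.68 in NC, giving a ratio of 1.02 (0.979 to 1.07). Acaa2 and Acat1, the thiolases of fatty acid and ketone body metabolism, had 18.5 and 16.2 FPKM in DCA and 19.1 and 16.1 FPKM in NC, with ratios of 0.968 (0.912 to 1.03) and 1.003 (0.9599 to 1.049).

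Among the auxiliary enzymes, which prepare unsaturated chains for the main pathway, Eci1 had the lowest ratio of all members. This enoyl-CoA isomerase (ENSMUSG00000024132, chromosome 17, 24426641 to 24439348, plus strand) stood at 1.64 FPKM in DCA against 1.98 in NC, from 543 reads in DCA against 688 in NC, giving a ratio of 0.826 (0.737 to 0.926). Decr1, the dienoyl-CoA reductase (ENSMUSG00000028223, chromosome 4, 15917240 to 15945507, minus strand), stood at 6.66 FPKM in DCA against 7.32 in NC, from 1517 reads in DCA against 1744 in NC, giving a ratio of 0.910 (0.849 to 0.976). Neither overlaps another gene. Eci2, the related isomerase that also acts in peroxisomes, had 1.76 FPKM in DCA against 1.74 in NC, giving a ratio of 1.01 (0.940 to 1.08). The ratio of Eci1 was 0.819 times that of Eci2 (0.716 to 0.937).

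The electron transfer flavoprotein branch, which hands the electrons of the acyl-CoA dehydrogenases to ubiquinone, had a median ratio of 1.07 over 3 genes. Without genes whose exons overlap another, Etfa alone remains, and the median log2 difference is -0.004 in place of 0.09. Etfa, the alpha subunit, had 19.7 FPKM in both libraries and a ratio of 0.997 (0.953 to 1.04). Etfb, the beta subunit (ENSMUSG00000004610, chromosome 7, 43444083 to 43457800, plus strand), stood at 9.59 FPKM in DCA against 8.94 in NC, from 2101 reads in DCA against 2051 in NC, giving a ratio of 1.07 (1.01 to 1.14). Of its exonic bases 58.2% overlap other annotated genes, none of which has a value here. Etfdh, the ubiquinone oxidoreductase (ENSMUSG00000027809, chromosome 3, 79603788 to 79629500, minus strand), stood at 4.08 FPKM in DCA against 3.66 in NC, from 2939 reads in DCA against 2762 in NC, giving a ratio of 1.11 (1.06 to 1.17). Etfdh shares 3.70% of its exonic bases with 4930579G24Rik, and summed with it the ratio was 1.08 (1.03 to 1.1298). In all, 19 pairs of subunits or related enzymes were compared in this way, and the interval of the ratio of ratios excluded 1 for 12 of them. Single genes often did so too, with intervals above 1 for 25.7% and below 1 for 20.0% of all genes, and the share for pairs of other genes was not computed, so the count is a description. Among the 7 pairs whose interval included 1, the ratio of Etfb was 1.08 times that of Etfa (0.996 to 1.16). That of Idh3g was 1.052 times (0.992 to 1.12) and that of Idh3b 1.03 times (0.975 to 1.095) that of Idh3a. The ratio of Suclg2 was 1.01 times that of Sucla2 (0.924 to 1.106), and that of Idh2 was 0.970 times that of Idh1 (0.927 to 1.01). Against Acadl, the ratio of Acadm was 1.03 times (0.972 to 1.09) and that of Acads 0.981 times as large (0.916 to 1.051).

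The deposited FPKM cannot rank the members by level, because it divides reads by the lengths of a gene's annotated transcripts added together, a figure between 1.03 times (Cs) and 3.40 times (Ogdh) its exonic length. Divided instead by the exonic bases of each gene counted once, member levels ran from 0.993 to 80.7 reads per kilobase of exon and 1e6 reads in DCA, with a median of 17.7, and from 1.052 to 80.3 in NC, with a median of 17.7. All genes tested had medians of 10.6 in DCA and 10.5 in NC on this scale, and 28 of the 39 members were above the all-gene median in each library. The highest was Idh1, at 80.7 in DCA and 80.3 in NC, followed by Acly at 57.6 in DCA and 57.4 in NC. Cs stood at 56.8 in DCA and 54.4 in NC, and Acadl at 55.9 in DCA and 57.4 in NC. Pcx was the lowest, at 0.993 in DCA and 1.052 in NC. Hadhb was next to lowest, at 3.50 in DCA and 3.14 in NC. Pyruvate and citrate members had a median of 29.6 in DCA and 28.8 in NC, and fatty acid oxidation members 13.0 in DCA and 11.6 in NC. The first median is the level of Idh3b. The deposited FPKM of Idh3b fitted a summed length of 5970 in place of the annotated 4737, so its exonic bases and level are uncertain. Of the 10 highest members, 9 were the same in both libraries. Exonic bases include those of rarely used transcripts, which lowers the level of genes with many of them.

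**Figure D3:**
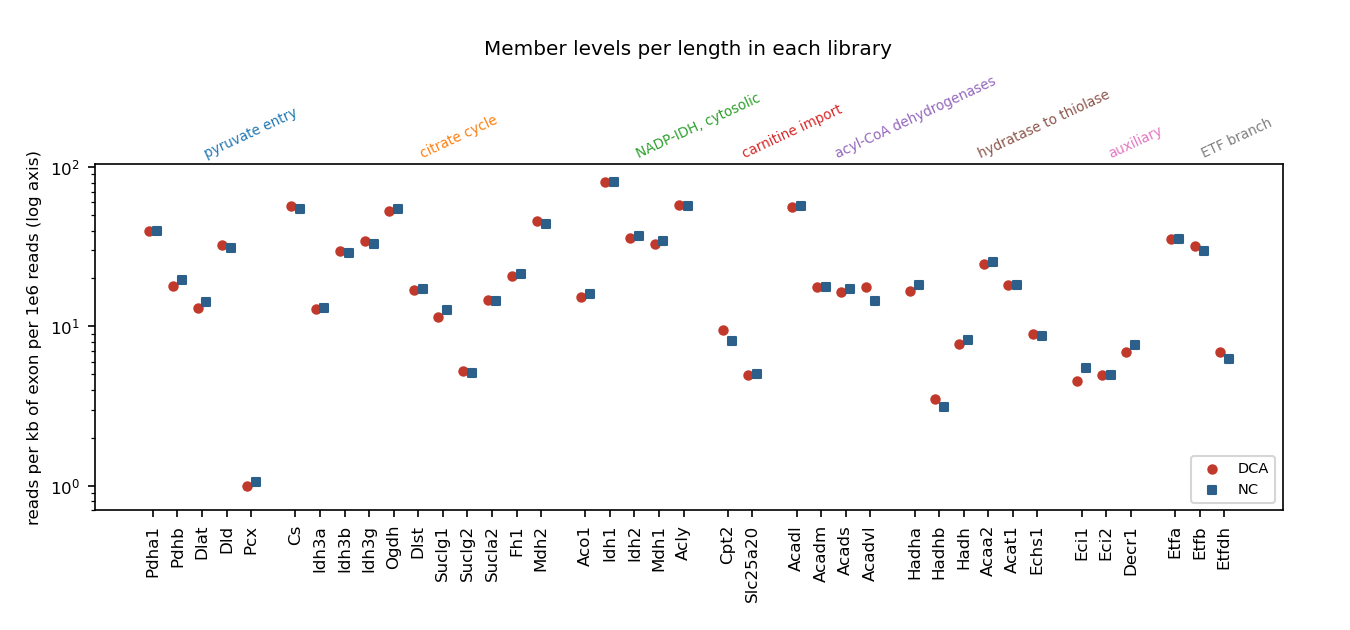
Level of each member in reads per kilobase of exonic bases and 1e6 reads, on a log axis, in the DCA library (circles) and the NC library (squares), grouped by role. Idh1 is the highest, at 80.7 in DCA and 80.3 in NC, Pcx the lowest, at 0.993 in DCA and 1.052 in NC, and the symbols of each gene stand at nearly the same height.

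Promoters are printed here for 4 genes on either side of equality. Cpt2, Eci1 and Suclg1 had the ratios furthest from 1 among members with neither an exon overlap nor a near-identical copy, and Pdhb, which has such a copy, belongs to the complex described first. They were chosen after their values were seen. Each stretch holds only bases within 250 upstream of the RefSeq start that lie in no annotated exon, 5′ to 3′ on the strand of the gene, from the RefSeq table of GRCm38.p6. Capitals mark the GC box (GGGCGG), the CCAAT box (CCAAT) and the ETS site bound by GABPA (CCGGAAG) on either strand. The Cpt2 stretch is chr4:107923611-107923839, Eci1 chr17:24426433-24426640, Suclg1 chr6:73248255-73248381 and Pdhb chr14:8173026-8173242.
Cpt2: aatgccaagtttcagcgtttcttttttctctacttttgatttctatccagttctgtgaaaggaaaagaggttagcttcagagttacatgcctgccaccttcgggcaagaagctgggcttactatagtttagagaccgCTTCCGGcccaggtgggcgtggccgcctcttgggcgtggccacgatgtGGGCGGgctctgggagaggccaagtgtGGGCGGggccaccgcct
Eci1: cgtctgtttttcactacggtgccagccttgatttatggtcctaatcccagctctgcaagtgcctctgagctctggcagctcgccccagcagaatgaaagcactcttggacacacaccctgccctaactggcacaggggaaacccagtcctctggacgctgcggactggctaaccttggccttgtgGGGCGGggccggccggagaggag
Suclg1: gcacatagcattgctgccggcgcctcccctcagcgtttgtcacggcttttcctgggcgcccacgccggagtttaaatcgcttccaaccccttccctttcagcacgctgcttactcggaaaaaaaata
Pdhb: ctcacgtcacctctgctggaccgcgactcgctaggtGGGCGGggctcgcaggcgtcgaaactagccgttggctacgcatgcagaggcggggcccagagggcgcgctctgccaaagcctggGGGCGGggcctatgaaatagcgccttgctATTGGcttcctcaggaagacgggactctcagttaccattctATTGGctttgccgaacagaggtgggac

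The promoter table held 35 of the 39 members. In their windows of 300 bases, of which 250 lie before and 50 after the start, the GC box was found in 27 of 35 members (77.1%), against 69.7% of 7784 tested genes in the table and 35.7% of all 32851 windows. The CCAAT box was found in 17 members (48.6%), against 43.3% of tested genes and 37.4% of windows. The ETS site was found in 5 members, Idh3b, Idh3g, Dlst, Cpt2 and Slc25a20 (14.3%), against 22.9% of tested genes and 8.86% of windows. The letters GCGCATGC, part of the site of NRF1, a regulator of mitochondrial genes, were found in Ogdh, Acadm, Etfa and Etfdh, which is 11.4% of the members, against 6.65% of tested genes and 2.71% of windows. The element of the oestrogen-related receptors (TCAAGGTCA) was in none of the 35, against 0.308% of tested genes and 0.423% of windows, and the E-box CACGTG was in Pcx and Ogdh, against 12.3% of tested genes and 7.15% of windows. The motifs were read on both strands. No motif contains the letters of another, and genes with more than 1 start were counted if any window held the motif. A match describes letters and is no evidence of binding, and an absent match says only that the letters are not in the window.

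Other genes of the same pathways also centred near equality. The 6 lists held 100 symbols (Mut and Mmut name the same gene), 96 of them in the table and 79 past the filter of 1 FPKM on average. Of these 79, 38 were higher and 41 lower in DCA, while 4 lay 1.1-fold or more above NC and 6 as far below, at a median ratio of 0.997. Of all genes tested, 8.99% and 4.79% were as far apart, and 46.5% were lower by any amount. The list of other genes of fatty acid activation and import was lower in 9 of 10, at a median ratio of 0.951. It leaves out the import members Cpt2 (1.18) and Slc25a20 (0.987). Among its lower genes are the acyl-CoA thioesterases Acot2 (0.946) and Acot13 (0.949), which do not activate fatty acids. Acsl3, an acyl-CoA synthetase that overlaps another gene, had 3.66 FPKM in DCA and 4.49 in NC and a ratio of 0.814 (0.772 to 0.858). The regulators of fatty acid oxidation were lower in 7 of 11, at a median ratio of 0.963. Among them Pparg, a lipid-sensing nuclear receptor, had 678 reads in DCA and 940 in NC, 1.47 FPKM in DCA and 1.94 in NC, and a ratio of 0.755 (0.683 to 0.834). Of 12 peroxisomal oxidation genes, 8 were higher, with a median of 1.01, and Ehhadh, the peroxisomal bifunctional enzyme, had 248 reads in DCA against 173 in NC, giving a ratio of 1.5003 (1.23 to 1.83).

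In the list of regulators, carriers and cofactor assembly of pyruvate dehydrogenase, 4 of 11 were higher and 7 lower, at a median of 0.982. Lipt2, which transfers octanoate for lipoic acid synthesis, had 206 reads in DCA against 147 in NC, giving a ratio of 1.47 (1.18 to 1.82), while Lias, the lipoic acid synthase, had 1299 reads in DCA against 1572 in NC, giving a ratio of 0.865 (0.803 to 0.931). Lias overlaps another gene. The other citrate cycle enzymes and carriers had 11 of 19 genes higher in DCA and a median ratio of 1.002. Slc25a10, the dicarboxylate carrier, which overlaps another gene, had a ratio of 0.855 (0.7998 to 0.913). The other mitochondrial acyl-CoA enzymes had 10 of 16 genes higher in DCA and a median ratio of 1.01. Pccb, a subunit of propionyl-CoA carboxylase, had a ratio of 0.879 (0.812 to 0.951). Ecsit, a complex I assembly factor rather than an acyl-CoA enzyme, had 1.38 (1.247 to 1.53) and overlaps another gene.

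**Figure D4:**
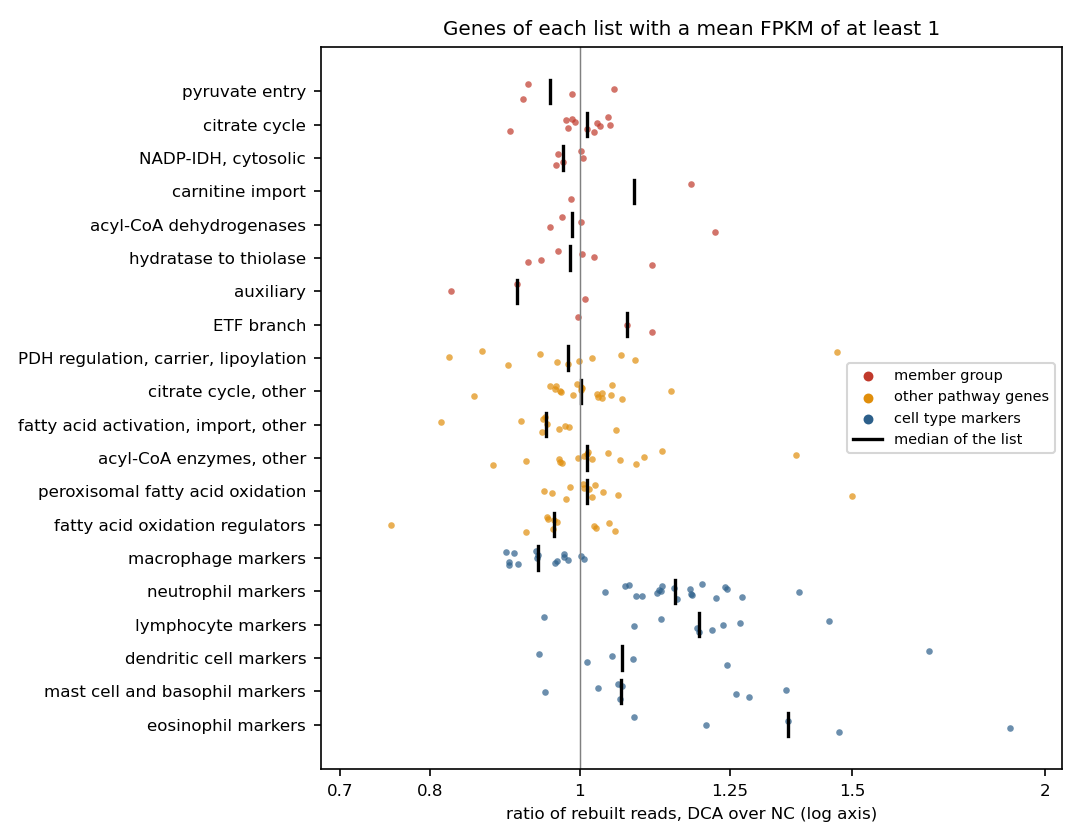
Ratio of reads, DCA over NC, on a log axis for each gene with a mean FPKM of at least 1 in the member groups, the other pathway lists and the cell type marker lists, with the median of each list as a bar. Member and pathway medians lie between 0.910 and 1.08, while the neutrophil, lymphocyte and eosinophil markers have medians of 1.15, 1.19 and 1.36.

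The labelled cell type was checked against its markers. Macrophage markers were detected, with Adgre1 (F4/80) at 61.6 FPKM in DCA and 65.7 in NC and Csf1r, the receptor for M-CSF, at 90.2 in DCA and 92.3 in NC. C1qa, a complement component, had 50.4 in DCA and 56.2 in NC. The macrophage markers were lower in 13 of 15 tested genes, at a median ratio of 0.940, and their summed FPKM was 1238 in DCA and 1288 in NC. Neutrophil markers had 20 of 20 genes higher in DCA (median ratio 1.15), and sums of 4551 FPKM in DCA and 3860 in NC, and S100a8 at 1043 in DCA and 851 in NC. Lymphocyte markers had 8 of 9 genes higher in DCA (median ratio 1.19), and sums of 182 FPKM in DCA and 150 in NC, and Cd79a at 76.7 in DCA and 60.4 in NC. Eosinophil markers had 5 of 5 genes higher in DCA (median ratio 1.36), and sums of 109.9 FPKM in DCA and 75.4 in NC. Dendritic cell markers were higher in 5 of 6 and mast cell and basophil markers in 7 of 8, at medians of 1.07 and 1.06. Erythroid markers summed to 0.606 FPKM in DCA and 0.191 in NC, and stromal markers to 0.163 in DCA and 0.143 in NC, with 2 of 7 stromal markers listed at 0 in both. Markers of neutrophils and lymphocytes were thus detected beside those of macrophages in both libraries, so the enzyme levels cannot be assigned to macrophages alone. The part of these marker differences in the ratios of the enzymes was not tested.

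Gene features moved little with the ratios. Across the 38 members, Spearman's rho between the ratio and the exonic length was 0.04 and with the GC content of the longest transcript -0.13, and across 9641 tested genes the values were -0.10 and 0.03. These are descriptions across genes of the same pair of libraries, which share depth and preparation.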

How the data were processed

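RNA of mouse BMDMs was sequenced in 1 DCA and 1 NC library, grouped by their treatment labels; table columns were matched to libraries by name. The authors deposited FPKM per gene with Ensembl identifiers. The submitters' processing notes list DESeq2 3.0, HTSeq 0.6.0, bedtools 2.17.0, Picard 1.126 and STAR 2.5.0c and the build GRCm38, with no role or order; the strand setting and any gene filter of the counting were not given in the sources used here.

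Low FPKM values were whole multiples of the value of 1 read, which gave totals of 56570555 reads (DCA) and 59205366 reads (NC). With the summed transcript lengths of GENCODE vM21, 11371 of 11793 genes with under 5000 reads (96.4%) came out whole within 0.05 of a read. Of the 39 members 38 did, Idh3b with a length of 5970 in place of 4737; Mdh1 was rounded. Ratios do not depend on the length. Differences were taken as log2(FPKM + 1) for genes averaging 1 FPKM or more, and ratios from the rebuilt reads with exact intervals (scipy 1.17.1); PCR copies are not independent molecules, so true counting error is larger. Copies were sought with BLAST+ 2.17.0 at 95% identity over 100 bases, against annotated transcripts. Exon overlap ignored strand. The rebuilding and the intervals were tested on simulated data.

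Every member is named; the 5 highest and 5 lowest ratios are given in full. Of other pathway genes, up to 2 in each direction and list that were 1.1-fold apart are named (1 is not reported here), and 5 markers; Dvl2, 4930579G24Rik, Pdhx beside its complex, and pseudogenes were added after their values were seen. Members, lists and limits were chosen with earlier results of these data known.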

Additional observations from a re-analysis of the deposited data

How the results depend on the processing

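No member was 1.5-fold apart in either direction under any of the 10 alternatives. The count of members at least 1.1-fold higher (2) and lower (1) moved with the setting, as did the shares of all genes (8.99% and 4.79%). It was 4 and 2 with a pseudocount of 0.1 (12.7% and 7.93% of all genes) and with the ratio of rebuilt reads (13.2% and 8.30%), and 1 and 0 with a pseudocount of 5 (2.90% and 1.098%). For genes averaging 5 FPKM or more it was 1 and 0, since that filter removes Cpt2 and Eci1. Beside it stood 6.99% and 3.43% of the 5080 genes then past the filter. Without genes whose exons overlap another the count was 1 and 1, since that removes Acadvl. Shares of all genes are not given here for that setting or for the median and TMM scalings that follow. The lower count was 3 with each library rescaled to a sum of 1e6, and 2 with the median log2 ratio of all genes set to 0 and with TMM factors. These 3 scalings multiplied the ratios of DCA over NC by 0.991, 0.994 and 0.992, which are log2 shifts of -0.013, -0.008 and -0.011. On the log2(FPKM + 1) scale the differences did not all move by these amounts. The sum of 1e6 also raises every FPKM, which lessens the weight of the added 1 and of the filter. Without the members that overlap or have a near-identical copy, an alternative chosen after seeing the data, 1 was at least 1.1-fold higher, 10 were higher by any amount and 5 had an interval above 1. Copies were not sought for other genes, so these counts have no matching share of all genes. The median log2 difference of the members ran from -0.02 to -0.004 over all settings, below 0 in each. Of 158 medians of lists, 157 moved by less than the typical counting interval; that of the electron transfer flavoprotein branch was -0.004 without overlapping genes, which leaves Etfa alone. Of 350 single member values, 349 moved by less than their counting interval reaches to either side of the ratio. Acadvl moved further, to 0.15 with a pseudocount of 5. A smaller move did not always keep a value inside the interval. With that pseudocount Cpt2, Eci1, Etfdh and Hadhb were at 0.099, -0.073, 0.068 and 0.038, each nearer equality than its interval of the ratio of reads. No paired analysis was possible because there is 1 library per group, and for the same reason no replicate could be left out. Depth limits Pcx and Eci1 most.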
